A study of Mus musculus with 12 samples.

Results

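The ErbB receptors and neuregulins are 8 genes: the receptors Egfr, Erbb2, Erbb3 and Erbb4 and the ligands Nrg1, Nrg2, Nrg3 and Nrg4. They were found by symbol in the platform annotation of the array, among 22180 genes that could be named by 1 symbol, and all 8 were measured. For a gene with several transcript clusters (the probe sets of these arrays) the cluster was chosen by its mean level over the 12 arrays, taking the highest, but each of the 8 genes had 1 cluster, so no value chose among clusters here. The family itself was chosen with the increase of Erbb3 in the knockout known, so the test of that increase below is not independent evidence. The same holds for counts and medians of the 8 genes, which include Erbb3.

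ErbB receptors are receptor tyrosine kinases that signal as dimers. The neuregulins are ligands with an EGF-like domain: NRG1 and NRG2 bind ErbB3 and ErbB4, whereas NRG3 and NRG4 bind ErbB4. ErbB2 has no known soluble ligand and serves as a partner, and ErbB3 has a weak kinase and couples the dimer to PI3 kinase. In the mouse testis, NRG1 is known as a product of somatic cells that acts on spermatogonia.

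The mice were C57BL/6N, 2 weeks old, and the RNA of each whole testis was hybridised to its own Affymetrix whole-transcript array. There were 3 testes of Sox3-KO mice (KO), which lack the SoxB1 transcription factor gene Sox3, and 3 of Sox3-Sox2KI mice (KI), which by their name carry the related gene Sox2 at the Sox3 locus. Both lines were made with CRISPR/Cas9. The 6 wild-type testes (WT) came as 3 littermates of KI mice (WT 1 to WT 3) and 3 littermates of KO mice (WT 4 to WT 6). The mutations are not restricted to a cell type, and the labels do not give the number of founder lines. Replicates are called biological in the labels. The series is about SoxB1 genes in the developing testis, and its design sets each mutant against the 6 WT testes.

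All values are the deposited log2 expression values, in which a difference of 1 is a factor of 2. Sox3 itself lay between 6.57 and 6.65 in KO, between 6.75 and 7.26 in KI and between 7.21 and 7.36 in WT testes (KO minus WT -0.68, adjusted p = 0.0161), but the probe positions relative to the deleted part are not known here, so this is only a partial check of the labels. The markers of Sertoli cells, the supporting cells of the seminiferous tubule, were above background in all 11 cases, as the tissue label requires. Background was taken as the 95th percentile of 1105 olfactory receptor genes, 5.33, against a median of 6.27 over all genes. The array KO 2 stood apart from the other KO arrays: its 10 meiotic prophase markers averaged 8.57, against 7.76 in KO 1 and 7.79 in KO 3, with 8.64 to 9.03 in KI and 8.78 to 9.28 in WT testes. Where a call of 1 of the 8 genes, or the size of a called change among them, depends on it, the value without KO 2 is given as well. For pathway and marker genes only the calls with all arrays are given.

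The RefSeq promoter table (GRCm38.p6) held 5 of the 8 genes: Egfr, Erbb2, Erbb4, Nrg3 and Nrg4. The 2 receptors with an entry whose KO values all lay above the WT values are shown, to let the sequence be read beside their values, with the 250 bases before the annotated start on the gene's own strand. Erbb4 lies on chromosome 1 (chr1:69108060-69108309, minus strand) and Egfr on chromosome 11 (chr11:16751953-16752202, plus strand). Capitals mark a match to the short SOX motifs ACAAT and ACAAAG, searched on both strands over 250 bases before to 50 after the start; the motifs do not overlap here.
Erbb4: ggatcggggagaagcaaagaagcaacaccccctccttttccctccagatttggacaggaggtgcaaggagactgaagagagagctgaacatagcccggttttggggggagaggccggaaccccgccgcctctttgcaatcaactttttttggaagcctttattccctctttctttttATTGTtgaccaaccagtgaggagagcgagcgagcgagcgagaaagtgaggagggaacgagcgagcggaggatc
Egfr: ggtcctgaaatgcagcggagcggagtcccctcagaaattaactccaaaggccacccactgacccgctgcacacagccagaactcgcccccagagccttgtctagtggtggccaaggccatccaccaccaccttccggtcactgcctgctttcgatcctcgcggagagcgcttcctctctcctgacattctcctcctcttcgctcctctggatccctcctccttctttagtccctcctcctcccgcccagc
Erbb4 held 1 match, ACAAT on the opposite strand, which starts at position -73. The other 4 promoters, that of Egfr included, held neither motif in this window. Among all 32851 promoters of the same 300 bases, 31% held ACAAT and 18.7% held ACAAAG, so a match in 1 of 5 is a description and shows no binding.

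Both receptors of the neuregulins, Erbb3 and Erbb4, were higher in KO than in WT testes, by 1.84-fold and 1.5-fold. Of the 8 genes, 2 passed limma's test at an adjusted p under 0.05, both higher, where 2.52% of all genes passed as higher and 4.86% passed in either direction. None of the 8 fell, where 2.34% of all genes did. The median change of the 8 was 0.326 on the log2 scale, against 0.043 over all genes. These counts and this median include Erbb3, whose rise was known when the family was chosen. In KI testes none of the 8 passed, where 0 of all 22180 genes did (0%).

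Erbb3, on chromosome 10, was 7.49, 7.30 and 7.64 in KO testes, 6.81, 6.40 and 6.77 in KI testes, 6.51, 6.42 and 6.63 in WT testes of KI litters and 6.81, 6.30 and 6.92 in WT testes of KO litters. Every KO value lay above every KI and WT value, and the KI values lay within the WT range. The group means were 7.48 ± 0.17 in KO (SD, n = 3), 6.66 ± 0.23 in KI (n = 3) and 6.60 ± 0.23 in WT (n = 6). The change in KO against WT was 0.88 (SE 0.14, 95% interval 0.57 to 1.19, adjusted p = 0.0234, rank 35 of 22180 genes by p). An exact two-sided permutation test over the 84 splits gave p = 0.0238, the smallest it can give. In KI against WT the change of Erbb3 was 0.06, with an interval from -0.25 to 0.37, below the KO estimate of 0.88. Both changes share the WT arrays. Set directly against KO, with all arrays, KI did not pass in limma's test (-0.82, adjusted p = 0.133).

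Erbb4, a receptor for all 4 neuregulins, was 7.59, 7.44 and 7.71 in KO testes, 7.40, 7.03 and 7.28 in KI testes, 7.04, 6.87 and 6.97 in WT testes of KI litters and 6.79, 7.15 and 7.15 in WT testes of KO litters. The KO values lay above all others, and the KI values reached from within the WT range to just under the lowest KO value. Mean levels stood in the order KO (7.58 ± 0.14), KI (7.23 ± 0.19) and WT (6.995 ± 0.147), and the KI mean did not differ from either neighbour at the adjusted threshold. In KO against WT Erbb4 changed by 0.59 (SE 0.11, 95% interval 0.36 to 0.82, adjusted p = 0.0295), with an exact permutation p of 0.0238. KI against WT gave 0.24 (interval 0.01 to 0.47, unadjusted p = 0.0436, adjusted p = 0.947).

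Egfr, the receptor of EGF and TGFA, was 8.34, 8.09 and 7.96 in KO testes, 7.89, 7.83 and 7.90 in KI testes, and from 7.60 through a median of 7.86 to 7.90 in WT testes. All KO values again lay above all WT values, the lowest by a small margin, and the KI values lay within the WT range. The KO change of 0.32 (SE 0.09, interval 0.12 to 0.51) missed the threshold (adjusted p = 0.0598). The exact permutation test gave p = 0.0238 for Egfr too, the value it gives whenever the KO values all lie above the WT values. Erbb3, Erbb4 and Egfr were thus the 3 of 8 genes whose KO values did not overlap the WT values, where 6.87% of all genes lay wholly above.

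Erbb2, the partner receptor, was 7.59, 7.73 and 7.35 in KO testes, 7.62, 7.36 and 7.28 in KI testes, and 7.16 to 7.53 with a median of 7.37 in WT testes. Its groups overlapped, and KO minus WT was 0.19 (interval -0.04 to 0.41, adjusted p = 0.305), and without KO 2 it was 0.099 (adjusted p = 0.625).

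**Figure D1:**
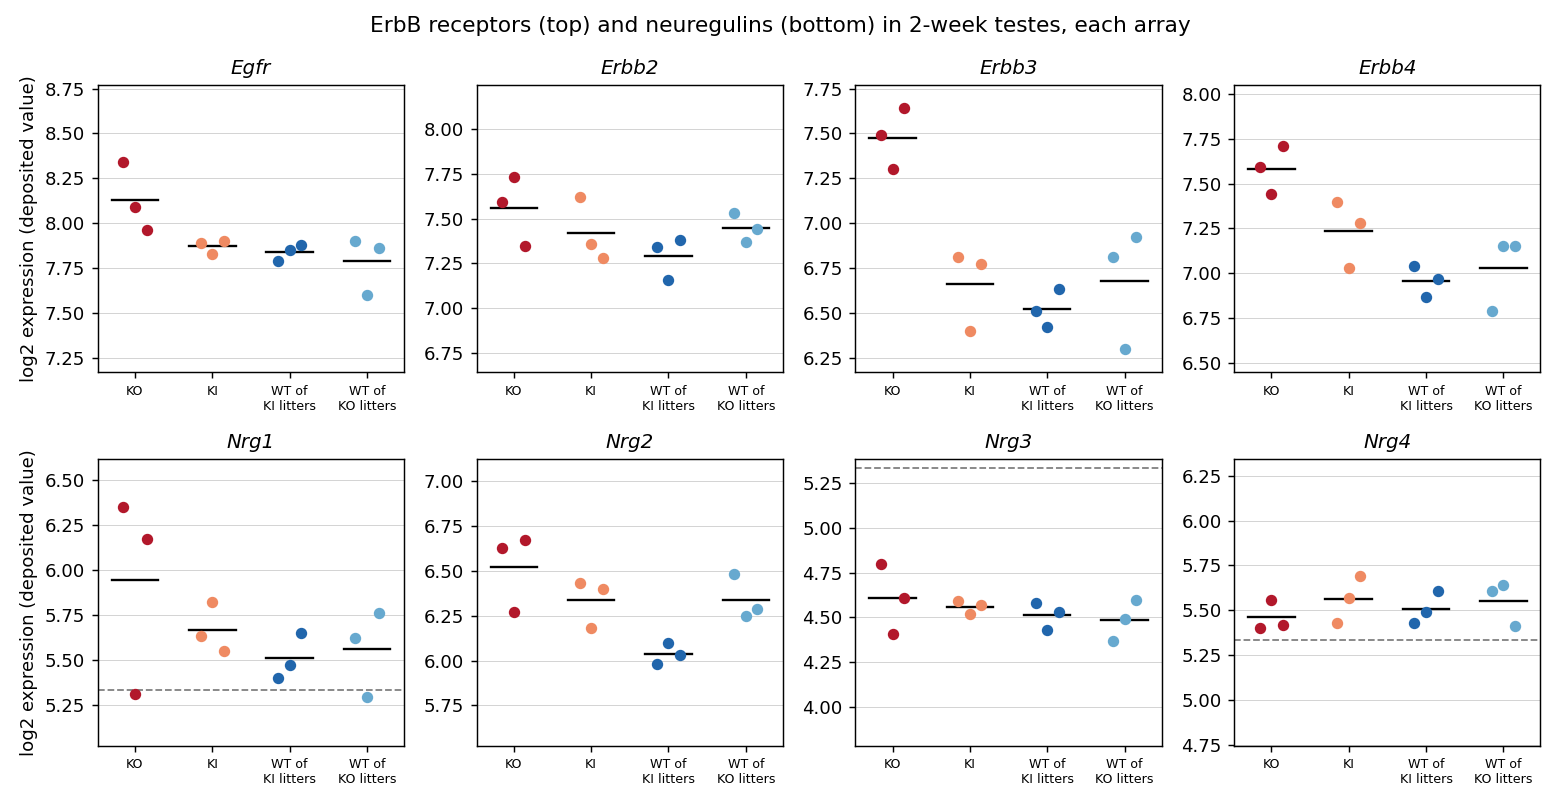
Deposited log2 expression (vertical axis, same span in each panel, different offset) of the 4 receptors (top) and 4 neuregulins (bottom); each point is 1 testis, horizontal bars are group means and the dashed line, where it falls in the panel, is the background level of 5.33. The KO points of Erbb3 (7.30 to 7.64) and Erbb4 (7.44 to 7.71) lie above all other points, Nrg1 is split within KO, and all Nrg3 points lie under the background line.

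Among the ligands, none passed with all arrays against the 6 WT testes, against littermates or between the mutants. Nrg1, the best known neuregulin and a ligand of ErbB3 and ErbB4, was 6.35, 5.31 and 6.17 in KO testes, 5.63, 5.82 and 5.55 in KI testes, and 5.29 to 5.76 with a median of 5.55 in WT testes. KO 1 and KO 3 were higher than every other array, whereas KO 2 was at the low end and, like WT 5, under the background level. KO minus WT was 0.41 (SE 0.19, interval 0.00 to 0.82, adjusted p = 0.204). Without KO 2 it was 0.73 (adjusted p = 0.00808), and Nrg1 then also passed in KO against littermates (0.70, adjusted p = 0.0385) and in KI against KO (-0.59, adjusted p = 0.0463). Leaving KO 2 out also moved the genes called in KO against WT from 1078 to 2323. Without KO 1 the change of Nrg1 against WT was 0.20 (adjusted p = 0.59), and without KO 3 it was 0.30 (adjusted p = 0.523).

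Nrg2, which also binds ErbB3 and ErbB4, was 6.63, 6.27 and 6.67 in KO testes, 6.43, 6.18 and 6.40 in KI testes, 5.98, 6.10 and 6.03 in WT testes of KI litters and 6.48, 6.25 and 6.29 in WT testes of KO litters. The WT testes of KI litters were below all others, and the KO and KI values overlapped those of the WT testes of KO litters. KO minus WT was 0.335 (SE 0.12, interval 0.07 to 0.60, adjusted p = 0.117). Without KO 2 it was 0.46 (adjusted p = 0.0394), without KO 1 0.28 (adjusted p = 0.303) and without KO 3 0.26 (adjusted p = 0.367).

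Nrg3, a ligand of ErbB4, lay between 4.41 and 4.80 in KO, 4.52 and 4.59 in KI and 4.37 and 4.60 in WT testes, under the background level on all 12 arrays. Nrg4, another ligand of ErbB4, lay between 5.40 and 5.56 in KO, 5.43 and 5.69 in KI and 5.41 and 5.64 in WT testes, just above it. Neither separated the groups. KO minus WT was 0.11 for Nrg3 and -0.07 for Nrg4, the 1 negative change among the 8 (adjusted p = 0.493 and 0.641).

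In KI against WT testes limma called 0 of 22180 genes (0%), and 5.24% had an unadjusted p under 0.05, Erbb4 alone among the 8. The changes of the 8 genes lay between 0.04 (Nrg4) and 0.24 (Erbb4), all positive, with a median of 0.061 against -0.001 over all genes. This comparison shares the WT testes with that of KO, so the signs of both sets of changes are not independent. Apart from the receptors, the KI change was 0.14 for Nrg1, 0.14 for Nrg2 and 0.06 for Nrg3, with every interval including 0.

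**Figure D2:**
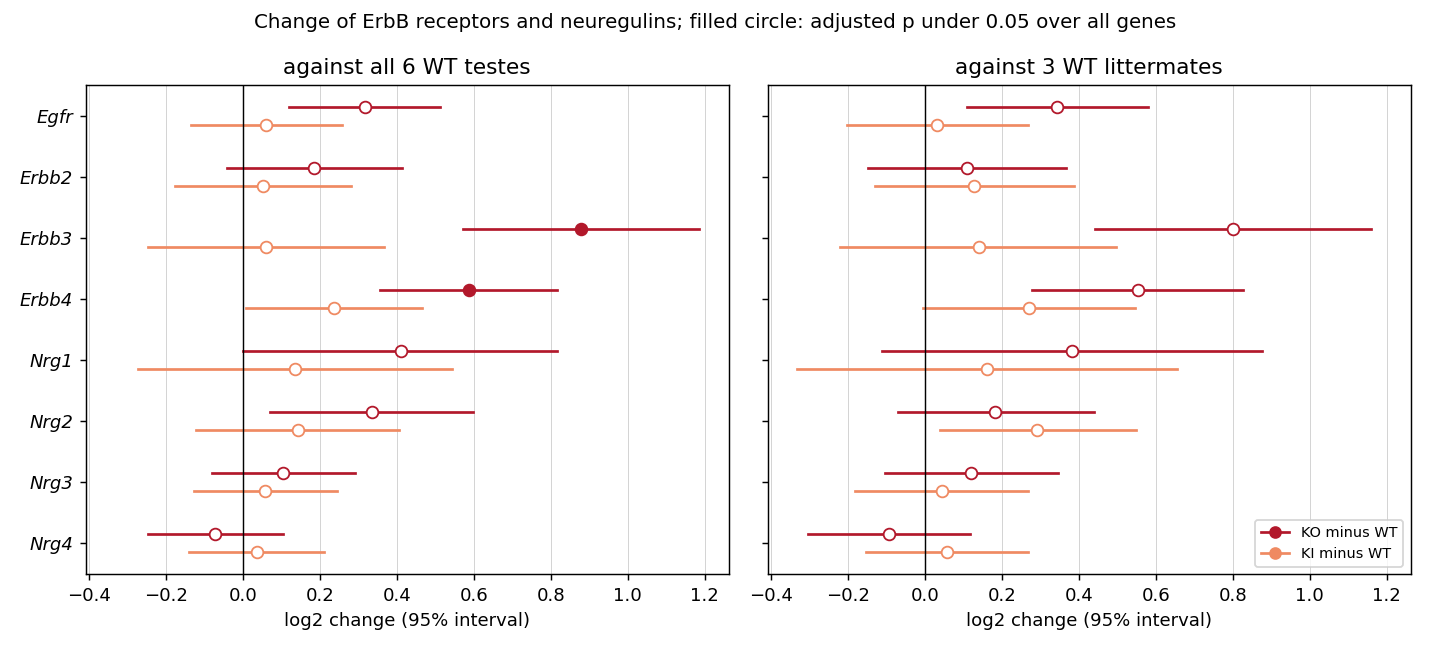
Log2 change (horizontal axis) of each gene with its 95% interval, KO minus WT in dark red and KI minus WT in orange, against all 6 WT testes (left) and against the mutant's own 3 WT littermates (right); filled circles have an adjusted p under 0.05 over all genes. Only Erbb3 (0.88) and Erbb4 (0.59) in KO against the 6 WT testes are filled.

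KI and KO testes were also set against each other, a difference that uses no WT value, although its SE and p draw on the spread of all 12 arrays. Erbb3, Erbb4 and Egfr were lower in all 3 KI testes than in all 3 KO testes, where 12.6% of all genes lay wholly below. Erbb3 differed by -0.82 (SE 0.16, interval -1.17 to -0.46, unadjusted p = 2.66e-04, adjusted p = 0.133), Erbb4 by -0.35 (adjusted p = 0.19) and Egfr by -0.26 (adjusted p = 0.235). Without KO 2 Erbb3 passed (-0.91, adjusted p = 0.0344), as did Nrg1, with 721 genes called in all, while Erbb4 (-0.42, adjusted p = 0.101) and Egfr (-0.28, adjusted p = 0.2) did not. With all arrays no gene of the table passed in this comparison by limma (0%), while 18.0% had an unadjusted p under 0.05. With 3 testes in each group an exact permutation test cannot go below 0.1, the value that each of the 3 receptors gave.

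Against their own 3 littermates the KO testes gave similar sizes with less precision. Erbb3 changed by 0.80 (SE 0.16, interval 0.44 to 1.16), Erbb4 by 0.55 (SE 0.13, interval 0.28 to 0.83) and Egfr by 0.345 (SE 0.11, interval 0.11 to 0.58), with adjusted p-values of 0.155, 0.155 and 0.192. All 3 lay wholly above their littermates, where 10.2% of all genes did. None of the 8 passed, while 2 genes of the whole table did (0.00902%), and 15.7% had an unadjusted p under 0.05. Without KO 2 605 genes were called, among them Erbb3 (0.89, adjusted p = 0.0368), Erbb4 (0.62, adjusted p = 0.0441) and Nrg1. Against the WT testes of KI litters, KO testes gave 0.96 for Erbb3 (adjusted p = 0.026), 0.62 for Erbb4 (adjusted p = 0.0278) and 0.49 for Nrg2 (adjusted p = 0.0361).

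KI testes against their own littermates gave 0.14 for Erbb3 and 0.27 for Erbb4, and limma again called 0% of genes, with 4.51% at an unadjusted p under 0.05. Nrg2 was the 1 gene of the 8 wholly above its littermates (0.29, interval 0.04 to 0.55, unadjusted p = 0.0275, adjusted p = 0.93), where 8.37% of all genes were. The same WT testes of KI litters were also below those of KO litters for Nrg2 (-0.30, unadjusted p = 0.0242, adjusted p = 0.891), where 7.93% of all genes lay wholly below. Between the WT litters limma called 0% of genes and 5.29% had an unadjusted p under 0.05. For Erbb3 and Erbb4 the WT litters differed by -0.16 and -0.07, with intervals of -0.52 to 0.20 and -0.34 to 0.21.

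Whether the mutants differed in their change within litters was tested directly. The KI change minus the KO change was -0.66 for Erbb3 (SE 0.23, interval -1.17 to -0.15, unadjusted p = 0.015), -0.31 for Egfr and -0.28 for Erbb4. None of the 8 passed (adjusted p = 0.847 for Erbb3), nor did any gene of the table (0%), and 5.83% had an unadjusted p under 0.05.

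The sizes of the Erbb3 and Erbb4 changes in KO against WT moved little when 1 array was left out, but their calls did not always hold. The change of Erbb3 stayed between 0.80 and 0.97 and that of Erbb4 between 0.52 and 0.66. Neither passed without KO 1 (adjusted p = 0.109 and 0.11), KO 3 (0.114 and 0.144), WT 1 (0.0552 and 0.0611), WT 2 (0.0575 and 0.0656) or WT 3 (0.0571 and 0.0594). Without WT 5 only Erbb3 passed, at the threshold (0.05), and Erbb4 did not (0.0561). Both passed without KO 2 (0.00717 and 0.00959), WT 4 (0.0239 and 0.025) or WT 6 (0.0162 and 0.0179), and without KO 2 Nrg1 and Nrg2 passed as well. The calls of the whole table moved with these arrays, from 3 genes without KO 1 and 2 without KO 3 to 2323 without KO 2, against 1078 with all arrays.

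**Figure D3:**
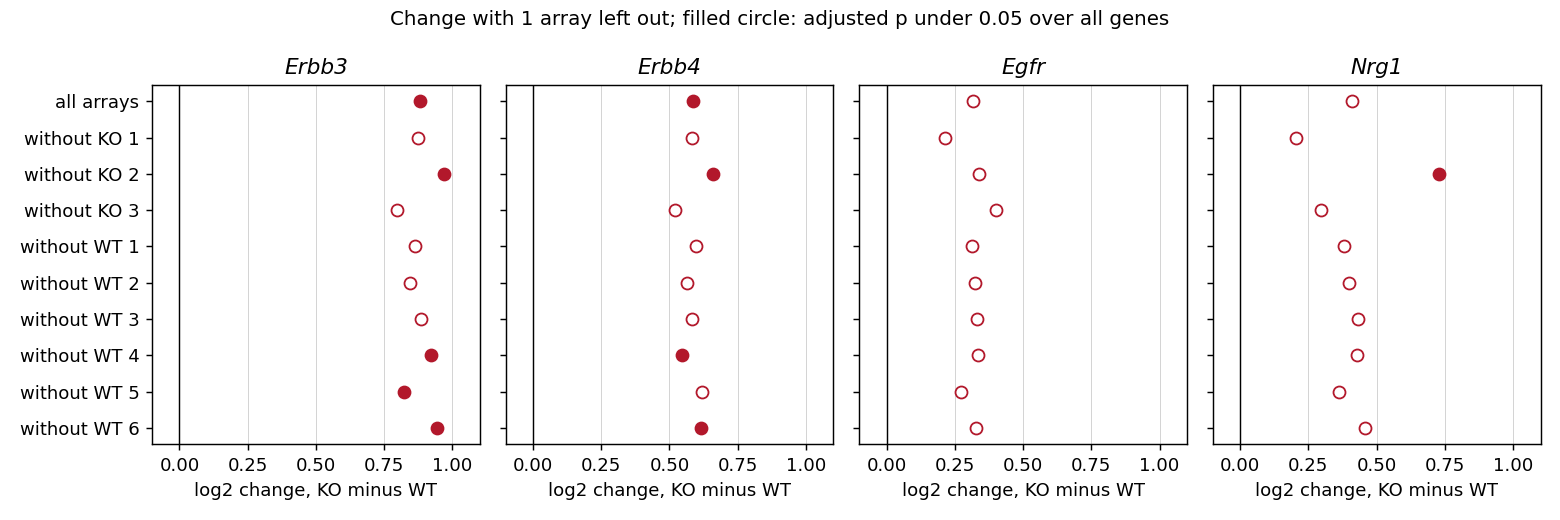
Log2 change in KO minus WT (horizontal axis) of Erbb3, Erbb4, Egfr and Nrg1 with all arrays (top row) and with each KO or WT array left out in turn; filled circles have an adjusted p under 0.05 over all genes. Erbb3 stays between 0.80 and 0.97 and Erbb4 between 0.52 and 0.66, while Nrg1 ranges from 0.20 without KO 1 to 0.73 without KO 2.

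Of the wider ErbB pathway, 55 other genes were listed by role, and 51 of them were measured. In KO against WT 4 rose, 0 fell and 47 did not pass, where 2.52% of all genes rose and 2.34% fell. In KI against WT none of the 51 passed, where 0% of all genes did. In KO against its own littermates none of the 51 passed either, where 0.00902% of all genes did. Whether the 4 calls hold with 1 array left out is not given here. Pik3r1, a regulatory subunit of PI3 kinase that binds phosphorylated ErbB3, was 8.16, 8.05 and 8.25 in KO testes, 7.91, 7.80 and 7.81 in KI testes and 7.62 to 7.90 in WT testes (KO minus WT 0.39, adjusted p = 0.0311). It was the 1 of 19 measured adaptors and effectors that passed, and the median change of these 19 was 0.12. The other regulatory subunits Pik3r2 (0.14, adjusted p = 0.304) and Pik3r3 (-0.07, adjusted p = 0.715) did not pass, nor did the catalytic subunit Pik3ca (0.02, adjusted p = 0.869).

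Ligand shedding frees membrane-bound ErbB ligands. In that list of 6, Adam19, a metalloprotease known to process neuregulin, was 6.29, 5.97 and 6.18 in KO testes, 6.02, 5.53 and 5.75 in KI testes and 5.43 to 5.84 in WT testes (KO minus WT 0.48, adjusted p = 0.0402). Rhbdf1, an inactive rhomboid protein that helps the sheddase ADAM17 mature, was 7.33, 7.39 and 7.70 in KO testes, 7.16, 7.04 and 7.20 in KI testes and 6.90 to 7.20 in WT testes (0.37, adjusted p = 0.0444). All KO values of both genes lay above the WT values, as they did for 6.87% of all genes. The sheddases Adam10 (0.12) and Adam17 (-0.01) did not pass, and the median of the list was 0.159.

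Immediate-early and feedback genes are induced by growth factor signalling, and 1 of 10 passed. Egr3, a zinc finger transcription factor, was 6.10, 6.16 and 6.18 in KO testes, 5.90, 6.05 and 5.84 in KI testes and 5.62 to 6.00 in WT testes (0.36, adjusted p = 0.0368). Dusp6, a phosphatase that limits ERK, gave 0.36 and just missed the threshold (adjusted p = 0.0508), and Ccnd1 gave -0.23 (adjusted p = 0.1). The list's median was 0.207, against 0.043 over all genes. In KI against WT, where none of the 10 and 0% of all genes passed, it was 0.153, against -0.001 over all genes. The list averaged 7.26 in KI 1, but 6.84 in KI 2 and 6.83 in KI 3, within the WT range of 6.67 to 6.87.

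None of the 6 other EGF family ligands measured passed, and the one of smallest p was Tgfa, with a log2 change of 0.205 (adjusted p = 0.262, list median change 0.125). None of the 10 negative regulators passed either, with the smallest p for the ubiquitin ligase Cbl (log2 change -0.24, adjusted p = 0.139, list median change 0.065). These lists, like the family itself, were chosen with results of these data known.

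**Figure D4:**
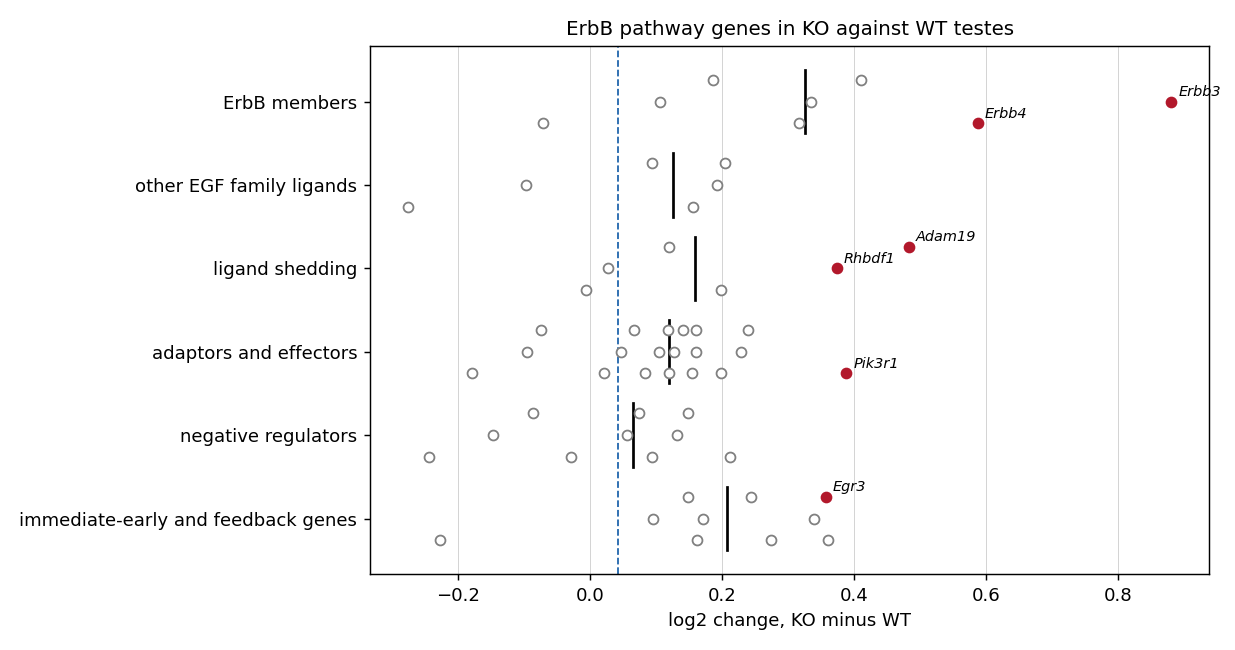
Log2 change in KO minus WT (horizontal axis) of each measured gene of the family and of 5 lists of pathway genes (rows; vertical scatter within a row has no meaning); black bars are list medians, the dashed line is the median of all genes (0.043) and filled, named points have an adjusted p under 0.05. The 6 named genes are all to the right of 0, and no list other than the family has a median above 0.207.

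The testis is a mixture of cells, so in these bulk samples fewer cells of a type and less RNA per cell cannot be told apart. Markers of several cell types moved with the KO genotype beside the receptors. Of the 10 measured meiotic prophase markers 9 fell in KO against WT, where 2.34% of all genes fell, and their mean level was 7.76 to 8.57 in KO, 8.64 to 9.03 in KI and 8.78 to 9.28 in WT testes. Of the 10 pachytene and later markers 4 fell (means 6.27 to 7.06 in KO, 7.24 to 7.71 in KI and 6.92 to 8.11 in WT testes). The prophase list was lower in every KO testis than in all others, whereas the pachytene list overlapped, and KO 2 was the highest KO array in both.

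Some markers of somatic cells and of undifferentiated spermatogonia rose in KO, but with all arrays most members of each of these lists did not pass. Over all genes 2.52% rose, against which the counts below are to be read. For Sertoli cells 2 of 11 rose, Fshr and Inhbb, and the list averaged 9.53 to 9.76 in KO, 9.40 to 9.58 in KI and 9.32 to 9.54 in WT testes. For steroid-producing Leydig cells 1 of 6 rose, Hsd3b1, with means of 8.96 to 9.34 in KO, 7.95 to 8.71 in KI and 8.05 to 8.87 in WT testes. Pdgfra was the 1 of 7 interstitial fibroblast markers that rose (9.52 to 9.95, 9.43 to 9.57 and 9.20 to 9.59 in KO, KI and WT testes), and Cald1 the 1 of 6 peritubular and smooth muscle markers (8.87 to 9.04, 8.76 to 8.87 and 8.64 to 8.85). Of 11 markers of undifferentiated spermatogonia Gfra1, Ret and Etv5 rose and 8 did not pass, 4 of them with negative changes (Id4 -0.355, Eomes -0.07, Pax7 -0.05 and Bcl6b -0.01), with list means of 6.46 to 6.58 in KO, 6.41 to 6.50 in KI and 6.31 to 6.37 in WT testes, and 3 of the 11 had a mean under background. The part of these shifts in cell markers in the changes of Erbb3 and Erbb4 was not tested.

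Schwann cells, the glia of nerves, depend on neuregulin and ErbB3. None of their 6 measured markers passed in KO against WT, and their mean was 5.51 to 5.74 in KO, 5.53 to 5.77 in KI and 5.49 to 5.67 in WT testes. Sox10, their defining transcription factor, changed by 0.07, and Cdh19 and Scn7a were under background on all 12 arrays. No endothelial, macrophage or epididymal marker passed with all arrays, and 5 of the 6 epididymal markers had a mean under background. The changes of all 7 endothelial markers were positive in KO against WT (median 0.196), as were those of all 7 macrophage markers (median 0.169). The endothelial list averaged 7.49, 7.15 and 7.62 in KO 1, KO 2 and KO 3. It averaged 7.26 to 7.47 in KI and 7.1 to 7.4 in WT testes.

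**Figure D5:**
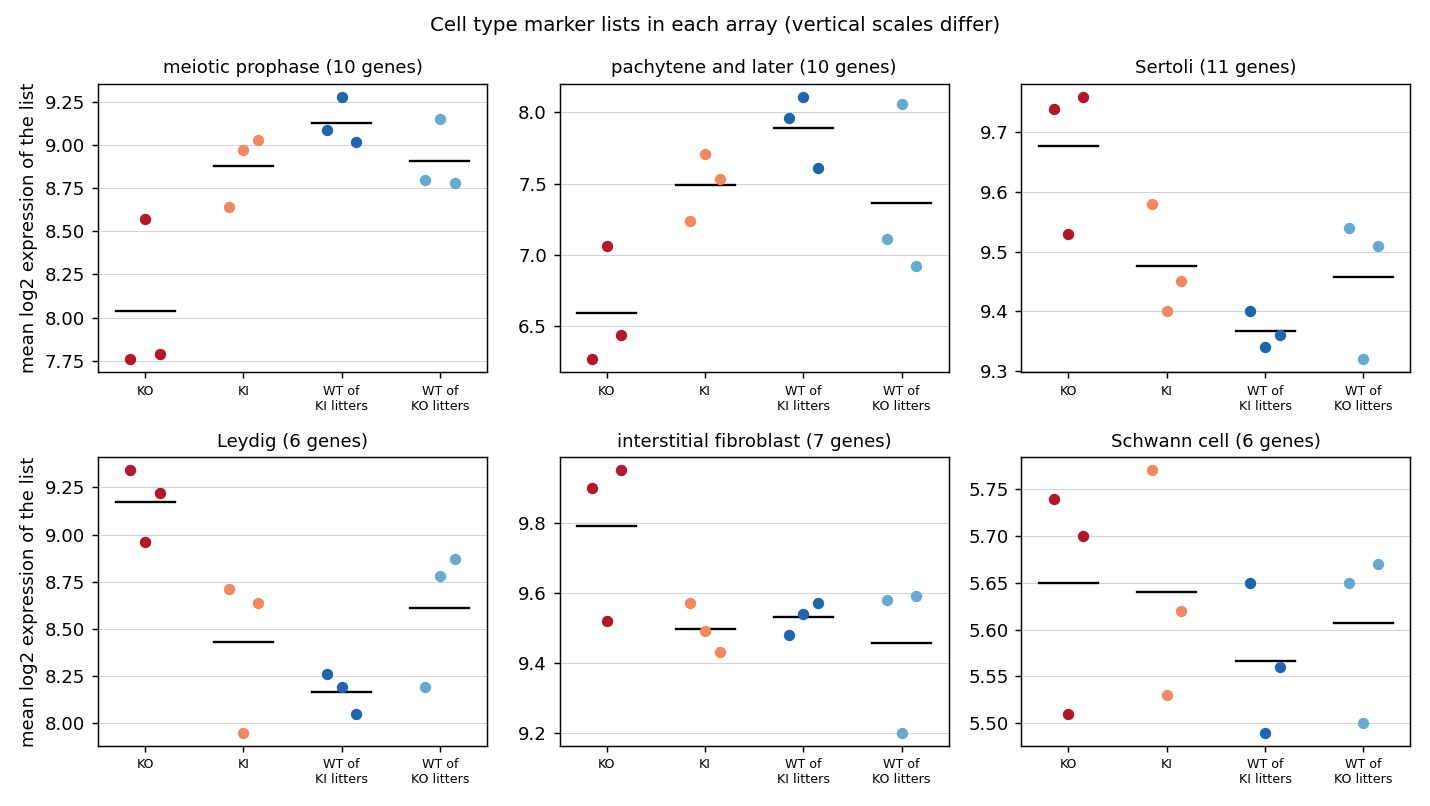
Mean log2 expression (vertical axis, scales differ between panels) of 6 lists of cell type markers in each testis; points are arrays and bars are group means. In KO the meiotic prophase list lies between 7.76 and 8.57 and below all other testes, the Leydig list lies between 8.96 and 9.34 and above all other testes, and the Schwann cell list overlaps between groups.

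The genes most like Erbb3 and Erbb4 were sought among 14547 genes above background, by Pearson correlation over the 12 arrays. For Erbb3 they were the adenylate cyclase Adcy2 (r = 0.977), the kinase Fyn (0.971), Spock2 (0.969), Pam (0.968) and Cnn3 (0.964). For Erbb4 they were Mideas (0.95), Mid2 (0.945), the glutamine synthetase Glul (0.943), Slc38a1 (0.932) and Mindy1 (0.931). All 12 arrays share 1 normalization and the same groups, so any gene that differs between the groups in the same way also correlates. Erbb3 and Erbb4 had r = 0.807 with each other, which placed Erbb4 at rank 965 among the genes most like Erbb3.

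After each array was set relative to the mean of its group, other genes came out. Nearest to Erbb3 were Wdr81 (0.966), Lrch1 (0.958), the cholesterol transporter Abcg1 (0.955), Abr (0.955) and Nhsl1 (0.954), and nearest to Erbb4 were Ust (0.959), Gpr26 (0.931), Art4 (0.924), Alas1 (0.915) and Lrrn1 (0.91). Within groups Erbb3 and Erbb4 had r = 0.312. None of the 5 genes nearest to either receptor over the 12 arrays was among its 5 nearest within groups.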

How the data were processed

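The authors deposited log2 expression values per transcript cluster (41345 clusters, 12 arrays, values 0.915 to 13.9). Per the submitters' processing notes the tools were RMA, Affymetrix Expression Console and Partek 6.6, with no role stated. RMA gives arrays a common distribution, so values are relative within an array, and array medians lay between 5.74 and 5.82. What filters and annotation release were used is not given in the labels. Clusters with 1 symbol (23521) gave 22180 genes; 1814 clusters with several symbols and 16010 with none were left out, and 21994 genes matched a RefSeq table by Entrez number.

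limma 3.58.1 (lmFit and eBayes, two-sided, R 4.3.3) was fitted to all 12 arrays with 3 genotype groups, or with 4 label groups for litters, with Benjamini-Hochberg adjustment over 22180 genes at 0.05 and no filter. Exact permutation tests used scipy 1.17.1. Precision is limited by the number of arrays. The fits were tested on simulated data. The limma p-values set a difference of means against the spread between testes within groups, shared over all groups of the fit and moderated across genes.

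The members and lists were chosen with earlier results of these data known. Named were all 8 members, pathway genes past the threshold (otherwise the smallest p in a list), and the 5 nearest genes. Adam10, Adam17, Dusp6, Ccnd1, Pik3r2, Pik3r3, Pik3ca and the named markers were added after their values were seen. Alternatives changed the normalization, filter, cluster choice, array weights, variance trend, samples and controls.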

Additional observations from a re-analysis of the deposited data

Results flagged for a closer look

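Egfr in WT 5 (7.60) lay apart from the other 5 WT testes (7.79 to 7.90): its gap to the nearest of them was 0.63 of the whole WT range, above the critical value of 0.625 for 6 samples. It was the 1 such case among 8 genes, and chance marks about 1 in 20 groups. Without WT 5 the change of Egfr in KO against WT was 0.27 (adjusted p = 0.0992).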

How the results depend on the processing

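Erbb3 passed in KO against WT under 9 other settings that left out no single array (0.87 to 0.96, adjusted p = 0.00299 to 0.049), and Erbb4 under 8 of them. Among these the replicate block and the WT of the other litter origin estimate the same difference, KO against the WT testes of KI litters. With only the 2 groups compared 1 of the 8 passed, since Erbb4 did not (0.0581), and calls over all genes were 15 higher and 15 lower, against 558 and 520. A variance trend gave 1151 and 1015 calls and 3 members with Egfr, and a filter at the median level gave 1354 and 1105 with Egfr (lowest adjusted p of Egfr 0.0217). In KI minus KO the same filter called 1 member, Erbb3, and 57 genes, against 0. Leaving out 1 array, the members called ranged from 0 to 4 in KO against WT, from 0 to 2 in KI against KO and from 0 to 3 in KO against littermates, each highest without KO 2, where 2323, 721 and 605 genes were called. Without WT 5 the WT litters differed in 50 genes, against 0.

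Whether the replicate numbers of the labels pair the testes is not settled. Same-number correlations of deviations lay between -0.035 and 0.159, and not every array was nearest its own number. Other-number correlations lay between -0.19 and 0.084, which overlaps that range, and the numbers of WT 4 to WT 6 could not be examined. With the replicate number as a block, KI minus KO called 1 member (Erbb3, -0.82, adjusted p = 0.0338) and 247 genes. The block leaves WT 4 to WT 6 without a partner, so they drop out of the differences. KO minus WT was then KO against the WT testes of KI litters alone, and called 3 members with Nrg2 (0.49) and 1468 genes. No block could be fitted for comparisons with WT of KO litters.

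Signs turned only for small changes that passed under no setting of their comparison. With WT of the other litter origin, KI minus WT became -0.024 for Erbb2, -0.018 for Erbb3 and -0.008 for Nrg2. A new quantile normalization gave 0.018 for Nrg3 in KI minus KO, and array weights -0.014 for Erbb2 in the difference of the mutant changes. Leaving out 1 array gave, for KI minus WT, -0.047 to 0.123 (Erbb2), -0.014 to 0.193 (Erbb3) and -0.027 to 0.102 (Nrg4). It gave -0.147 to 0.051 for Nrg3 in KI minus KO and -0.005 to 0.125 for Nrg4 in KI minus its littermates. Between WT litters it gave -0.039 to 0.114 (Egfr), -0.187 to 0.05 (Nrg1) and -0.029 to 0.086 (Nrg3). For the difference of the mutant changes it gave -0.086 to 0.106 (Erbb2), -0.018 to 0.187 (Nrg2) and -0.178 to 0.02 (Nrg3). The cause was not tested. Nrg3, and Nrg1 on 2 arrays, lay under the background level, which limits what their values show.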
